A study of Mus musculus with 16 samples.

Results

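The cornified envelope genes encode the protein shell that replaces the plasma membrane of the outermost epidermal cells, together with enzymes that assemble and shed it. They were taken from the table of gene counts as the protein-coding genes whose mouse symbol starts with Lce or Sprr, plus 15 genes named singly (Flg, Flg2, Hrnr, Lor, Ivl, Rptn, Crnn, Tgm1, Tgm3, Tgm5, Casp14, Cdsn, Klk5, Klk7 and Spink5). This gave 51 of the 45706 genes in the table, and the rule itself uses no measured value, although the genes were chosen with earlier results of these data known. RNA was sequenced from ear clips of 8 male mice of the inbred strain C57BL/6J (numbered 13, 14, 21, 29, 43, 50, 64 and 75), whose first ear was clipped at about 24 months and whose second ear at about 30 months, so that the 16 libraries form 8 pairs, each from 1 animal. The exact ages were 23.8 to 24.4 months and 29.0 to 30.1 months, and the submitters call these groups young and old. All mice are of 1 strain and sex and the labels give no treatment. Both groups are aged mice, young adults were not analysed here, and ear and age cannot be told apart. The question asked here is how the RNA of the envelope genes differed between the 2 ages of the same animal.

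In the epidermis, keratinocytes divide in the basal layer, move upwards through the spinous and granular layers and end as dead, flattened corneocytes. Involucrin and the plakins line the cell membrane early, loricrin and the small proline-rich (SPRR) and late cornified envelope (LCE) proteins are added afterwards, and transglutaminases cross-link them into an insoluble shell. Filaggrin and related S100-fused proteins pack the keratin filaments inside, and corneodesmosin holds corneocytes together until kallikrein proteases, held in check by the inhibitor LEKTI, release them at the surface. Most of these genes lie side by side in a cluster called the epidermal differentiation complex. The ear clip is a full-thickness punch that also holds dermis, cartilage, hair follicles and muscle, so a lower level can mean fewer cornifying cells or less RNA per cell, and in bulk tissue these cannot be told apart.

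In GENCODE M21 (GRCm38), 43 of the 51 genes lay in 1 stretch of chromosome 3, from 92080271 to 93399442 (1319 kb), which is the epidermal differentiation complex. Loricrin (Lor) stood at its start and repetin (Rptn) at its end. Between them came 11 Sprr2 genes, Sprr1b, Sprr3, Sprr1a, Sprr4, Ivl, Lce6a, the block of Lce1 genes, 6 Lce3 genes, Lce1m and the S100-fused genes. The other 8 were Tgm3 and Tgm5 on chromosome 2, Klk5 and Klk7 on chromosome 7, Casp14 on chromosome 10, Tgm1 on chromosome 14 and Cdsn on chromosome 17, with Spink5 elsewhere.

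Promoters are shown for 6 genes whose values the results below turn on, to let the reader see what members of a family share upstream. RefSeq promoters (GRCm38.p6, 250 bases before to 50 after the start) were found for 48 of the 51 genes. In the Lce1 promoters the capitals mark the 10-letter words that most of these promoters share on the gene's strand, ACTGTCTCAC (9 of 13, starting 65 to 53 bases before the start site) and CAGAATAAAA (9 of 13, 35 to 33 bases before it). Lce1e holds both and Lce1c the second. These words were picked from the promoters themselves, and they occur in 0.103% and 0.0822% of all 32851 promoters in the table. The first sequence is chr3:92678997-92679296 on the plus strand and the second chr3:92709025-92709324 on the minus strand.
Lce1c: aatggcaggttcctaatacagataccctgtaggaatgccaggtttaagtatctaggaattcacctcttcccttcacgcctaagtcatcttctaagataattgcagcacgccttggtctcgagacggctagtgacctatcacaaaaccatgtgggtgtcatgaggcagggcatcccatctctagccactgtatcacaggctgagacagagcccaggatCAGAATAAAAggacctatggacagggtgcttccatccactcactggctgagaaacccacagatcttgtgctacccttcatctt
Lce1e: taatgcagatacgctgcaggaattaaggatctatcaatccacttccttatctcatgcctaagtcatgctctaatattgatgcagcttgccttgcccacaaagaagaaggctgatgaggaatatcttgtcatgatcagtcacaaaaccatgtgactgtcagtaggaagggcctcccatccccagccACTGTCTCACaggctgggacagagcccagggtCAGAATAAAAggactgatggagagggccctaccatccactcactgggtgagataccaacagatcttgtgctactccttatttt
The Lce3 promoters shared other words, AGGATAAAAG in 5 of 6 (0.0578% of all promoters) and AGCATGCTTG in 4 of 6 (0.0426%), and held neither Lce1 word. Lce3c, the most abundant Lce3 gene here, is shown from chr3:92944236-92944535 on the plus strand with both words in capitals.
Lce3c: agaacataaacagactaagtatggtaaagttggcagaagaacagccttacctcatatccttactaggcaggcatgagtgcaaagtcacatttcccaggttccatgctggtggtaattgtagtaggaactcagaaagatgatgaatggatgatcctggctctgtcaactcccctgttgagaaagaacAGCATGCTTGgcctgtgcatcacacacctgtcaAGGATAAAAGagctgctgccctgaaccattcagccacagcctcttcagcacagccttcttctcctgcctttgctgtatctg
In the last 3 sequences the capitals mark a match to TGANTCA, the core letters bound by AP-1 (a dimer of Jun and Fos proteins), searched on both strands. This motif was present in 15 of the 48 matched promoters against 7.81% of all promoters in the table. It was found in both Sprr1 promoters, in 7 of 10 Sprr2 promoters (198 to 182 bases before the start site) and in those of Lor, Ivl, Crnn, Flg, Flg2 and Rptn, but in 0 of 13 Lce1 and 0 of 6 Lce3 promoters. A match describes the letters in the window and is no evidence of binding. The sequences are chr3:92438730-92439029 (minus strand), chr3:92338890-92339189 (plus strand) and chr3:93197023-93197322 (plus strand).
Sprr1b: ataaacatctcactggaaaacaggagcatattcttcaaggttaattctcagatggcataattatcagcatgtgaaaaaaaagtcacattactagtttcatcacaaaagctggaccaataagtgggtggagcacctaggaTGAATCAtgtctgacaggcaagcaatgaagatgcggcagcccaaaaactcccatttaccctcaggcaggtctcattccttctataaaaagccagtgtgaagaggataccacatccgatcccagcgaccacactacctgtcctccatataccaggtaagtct
Sprr2d: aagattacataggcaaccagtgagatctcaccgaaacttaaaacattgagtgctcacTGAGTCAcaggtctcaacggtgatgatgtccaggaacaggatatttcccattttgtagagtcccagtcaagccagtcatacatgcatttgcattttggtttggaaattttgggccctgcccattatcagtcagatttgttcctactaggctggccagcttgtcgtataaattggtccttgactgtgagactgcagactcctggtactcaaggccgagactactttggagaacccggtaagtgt
Flg2: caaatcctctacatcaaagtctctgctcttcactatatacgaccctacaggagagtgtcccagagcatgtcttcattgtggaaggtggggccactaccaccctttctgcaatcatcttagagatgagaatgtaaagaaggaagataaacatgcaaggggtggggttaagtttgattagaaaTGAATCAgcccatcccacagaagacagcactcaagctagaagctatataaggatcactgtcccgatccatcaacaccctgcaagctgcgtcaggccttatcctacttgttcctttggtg

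The coding sequences also repeat each other, which bears on how far single genes can be told apart with reads of 50 bases. Of the Lce1 genes, 10 of 14 hold the identical run below, which in Lce1a1 spans coding bases 295 to 344 and encodes part of the glycine-, serine- and cysteine-rich stretch typical of these proteins.
Lce1 run: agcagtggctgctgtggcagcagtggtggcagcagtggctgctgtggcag
The table's line for reads that map to several places is at 0 in every library, and how such reads were handled is not given in the sources used here. Between 9.12% and 27.1% of the 50-base windows of the 13 neighbouring Lce1 genes occurred in another gene, as did 12.1% to 49.3% of those of the Lce3 genes. Sprr2a1 and Sprr2a2 overlap and share 96.3% and 96.5% of their windows, so their counts cannot be assigned to either gene with certainty. In Flg2 and Hrnr, which consist largely of repeats, 34.7% and 30.9% of positions were unique, so their levels per length can be understated.

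The libraries held 22967222 to 36162431 reads assigned to genes (median 28877001 at 24 months and 29138399 at 30 months). The envelope genes together took 0.978% to 1.22% of these reads at 24 months and 0.932% to 1.33% at 30 months, and the groups overlap almost completely. Basal and suprabasal keratinocyte markers were abundant in every library, as the skin label requires (summed 8870 to 17658 and 25501 to 46419 CPM, the count scaled to the reads on genes after TMM correction). The 30-month library of mouse 50 stood apart in dermal and immune markers, with 14210 CPM of 7 fibroblast markers against at most 5458 in the other 30-month libraries and 193 CPM of 8 T cell markers against at most 68.1. Of 7 tested ear cartilage markers, 5 were lower at 30 months at an edgeR unadjusted p under 0.05 (7.18% of all genes) and 0 higher, with a summed level of 112 to 205 CPM at 24 months and 88.9 to 149 CPM at 30 months. The part of these cells in the results below was not tested.

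To compare levels between genes, CPM was divided by exon length in kilobases (RPKM). Loricrin, the main protein of the envelope by mass, was the most abundant, with a median of 1465 RPKM over the 16 libraries and a range of 1006 to 1915, which is 20.3% of the summed medians of all envelope genes. Lce1m (662 RPKM) and Lce1a1 (661 RPKM) came next and did not differ beyond their spread, since their ranges were 471 to 1132 and 538 to 856. The 14 Lce1 genes ranged from 97.2 RPKM (Lce1k) to 662 RPKM. Of the protease and adhesion genes, Klk7, Cdsn and Spink5 lay within the Lce1 range, with 268 RPKM for Klk7, 207 for Cdsn and 145 for Spink5. Hornerin (Hrnr) stood at 119 RPKM, Lce6a at 84.4, Sprr1a at 60.4, Klk5 at 60.1, Flg2 at 54.5, Tgm1 at 35.3, Ivl at 33.3, Casp14 at 23.6, Sprr4 at 22.9, Tgm3 at 16.3 and Tgm5 at 9.89 RPKM. In all, 18 genes had a median above 100 RPKM and 14 a median below 1 RPKM.

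**Figure D1:**
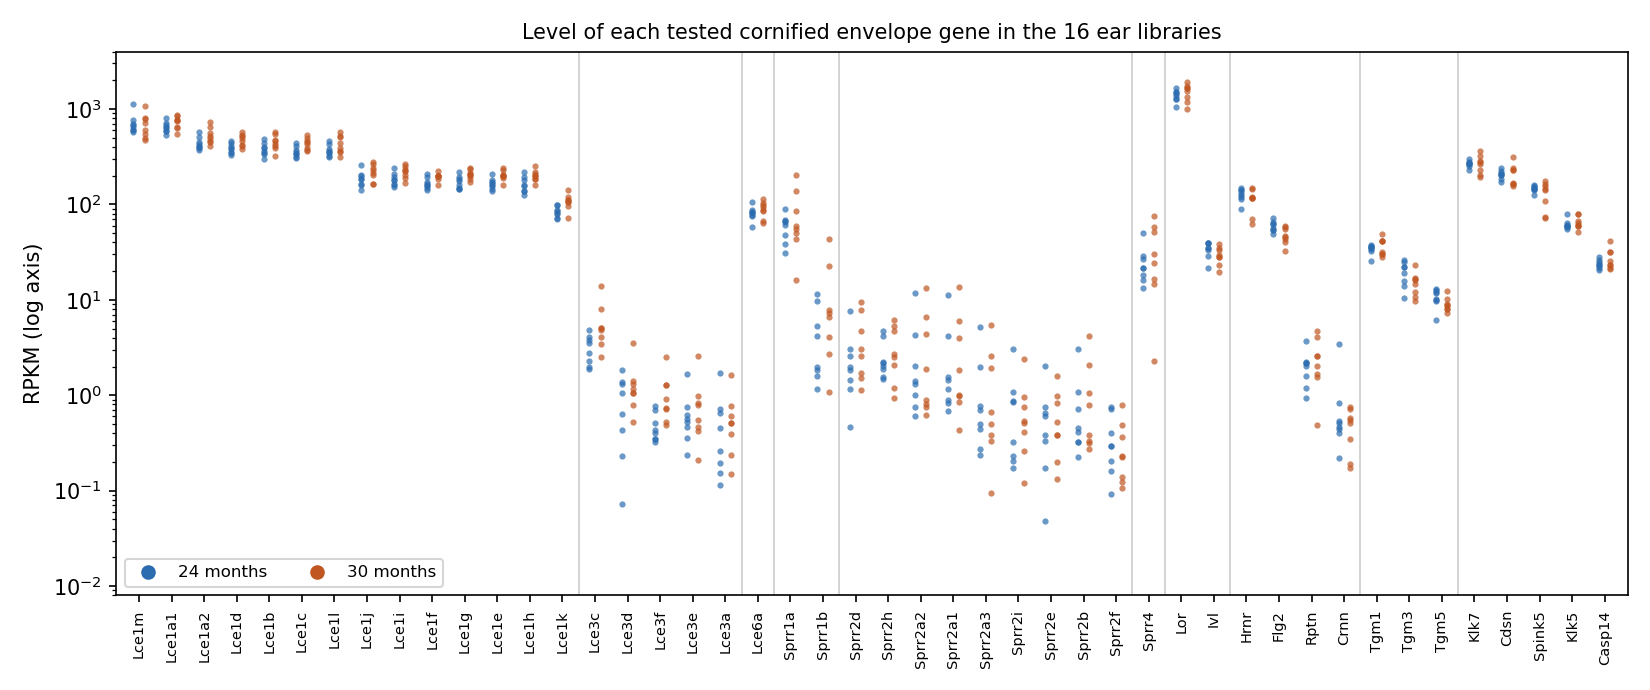
Level in RPKM (log axis) of the 46 tested cornified envelope genes, 1 point per library, blue at 24 months and orange at 30 months, with genes grouped by family between grey lines. Loricrin, the Lce1 genes and the protease and adhesion genes varied up to 2.48-fold between libraries, whereas the tested Lce3, Sprr1 and Sprr2 genes varied 6.50- to 57.1-fold.

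The low end was formed by genes known to be induced by injury or inflammation, or used by other epithelia. The Lce3 genes, induced when the skin barrier is broken, had medians over the 16 libraries of 0.171 to 3.95 RPKM and the Sprr2 genes medians of at most 2.26 RPKM, although single libraries reached 13.8 RPKM (Lce3c) and 13.6 RPKM (Sprr2a1). Sprr3, a gene of the oesophagus and other internal linings, had no read in any library, which allows at most 0.00638 CPM over the 470289445 reads of all libraries (3 counts, counting error only). Flg had 0 to 3 reads per library, although filaggrin is a major protein of mouse epidermis. GENCODE marks this gene as a locus with a reference genome error that overlaps another gene, Rplp0-ps1, so these counts were not read as its level. Of its positions 20.8% are unique. Flg2 (34.7%) and Hrnr (30.9%), also repetitive, had 15709 to 47170 and 18562 to 50948 reads per library. The cause of the low Flg counts was not tested. Flg, Sprr3, Sprr2j-ps, Sprr2k and Lce3b had too few counts to be tested, which left 46 of 51 genes.

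With edgeR's quasi-likelihood test, which compared the ages within mice, 0 of the 46 tested envelope genes passed an adjusted p of 0.05, and neither did any other gene (0% of 21526). The lowest adjusted p of an envelope gene was 0.279 (Lce3c), and 0 passed with DESeq2 as well, which called 1.15% of all genes. At an unadjusted p under 0.05, 10 envelope genes were higher at 30 months (Lce1c, Lce1d, Lce1e, Lce1f, Lce1g, Lce1h, Lce1k, Lce3c, Lce3f and Sprr1b) against 4.86% of all genes tested, and 1 was lower (Flg2) against 7.18%. The log2 fold change was above 0 for 34 of the 46 genes, against 51.7% of all genes, and its median was 0.18 against 0.01 over all genes. No tested envelope gene moved the same way in all 8 mice. In at least 7 of 8 mice, 7 were higher (6.49% of all genes) and 3 lower (8.33% of all genes). The 10 are not independent of each other, since 7 of the 10 genes are Lce1 genes that followed each other closely. Lce1 genes also hold identical stretches, whose part in this was not tested. Values of 1 mouse mattered: without mouse 43, 16 genes were higher and 3 lower at an unadjusted p under 0.05 (8.98% and 8.60% of all genes), and without mouse 75, 5 were higher and 1 lower (3.90% and 4.81%). Without mouse 50, whose 30-month library stood apart in its markers, 12 were higher and 1 lower (4.57% and 7.12%).

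**Figure D2:**
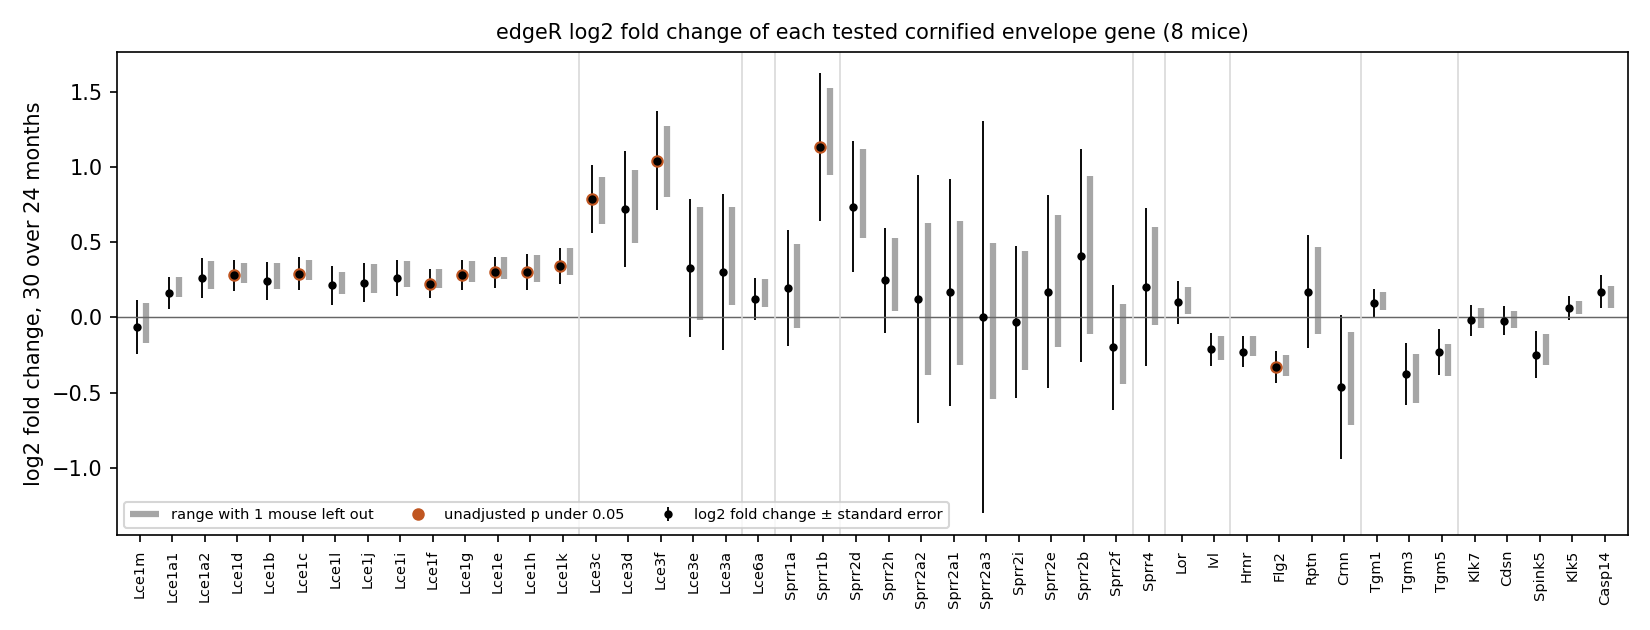
edgeR log2 fold change of 30 over 24 months (vertical axis) for each tested envelope gene, with its standard error, an orange ring where the unadjusted p is under 0.05, and a grey bar for the range with each of the 8 mice left out. The Lce1 genes other than Lce1m lie between 0.16 and 0.34 with small errors, Flg2 lies at -0.33, and the errors of the Sprr2 genes reach 1.31.

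The Lce1 genes encode small, cysteine-rich proteins added late to the envelope, and 13 of them lie next to each other (chr3:92646535-92851286), with Lce1m apart behind the Lce3 genes. All 13 had a log2 fold change above 0, from 0.16 (Lce1a1) to 0.34 (Lce1k), that is 1.12- to 1.27-fold, and 7 of them reached an unadjusted p under 0.05 (4.86% of all genes). Lce1e read 98.6, 116 and 149 CPM at 24 months (lowest, median and highest) and 115, 143 and 173 CPM at 30 months. The ranges overlap, but 7 of 8 mice had more Lce1e at the later age, and only mouse 43, which held the highest value at 24 months and the lowest at 30 months, had less. The log2 fold change was 0.30 ± 0.10 (SE, n = 8 mice), with an edgeR adjusted p of 0.317. Lce1k read 47.1, 55.5 and 65.8 CPM at 24 months and 47.8, 71.2 and 94.7 CPM at 30 months. It was also higher in 7 of 8 mice, by 0.34 ± 0.12 on the log2 scale (edgeR adjusted p = 0.329).

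The summed level of the 13 genes was 2179 to 3301 CPM at 24 months (median 2576) and 2433 to 3840 CPM at 30 months (median 3176). On the log2 scale it changed by 0.67 in mouse 29, 0.44 in mouse 75, 0.42 in mouse 14, 0.38 in mouse 13, 0.32 in mouse 21 and 0.28 in mouse 64, by -0.09 in mouse 50 and by -0.44 in mouse 43. The mean change was 0.25 ± 0.35 (SD, n = 8), so it was smaller than the spread between mice, and 6 of the 8 animals shared its sign. Lce1m was higher in 5 of 8 mice, at 447 to 1019 CPM at 30 months against 549 to 1074 CPM at 24 months, with a log2 fold change of -0.06 ± 0.18 (edgeR adjusted p = 0.901). Its value in mouse 43 was -1.18, and without that mouse its log2 fold change was 0.10.

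The 13 genes went up and down together from library to library. Spearman's correlation of log2 CPM over the 16 libraries had a median of 0.89 over their 78 pairs (0.55 to 0.99), against 0.08 between Lce1 and Lce3 genes and -0.16 between Lce1 and Sprr2 genes. Among the genes named, Lce1e was most like Lce1g (0.98), then Lce1d (0.92). These are descriptions over libraries that share animals, depth and scaling, and the part of near-identical stretches in them was not tested.

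Mouse 43 also had the largest increase or the largest decrease in several marker lists. The summed level of 11 hair follicle markers changed by 1.38 on the log2 scale in mouse 43, 0.21 in mouse 21, -0.13 in mouse 50, -0.53 in mouse 64, -0.60 in mice 13 and 14, -0.92 in mouse 29 and -1.85 in mouse 75. Spearman's correlation of this change with that of the 13 Lce1 genes over the 8 mice was -0.90, which describes sums from the same libraries and was picked out of all pairs of families and lists. The summed level of 9 sebaceous gland markers changed by 1.39 in mouse 43 and by -0.63 to 0.35 in the others, and that of 8 skeletal muscle markers by -3.25 in mouse 43 and by -0.16 to 3.18 in the others. Over all libraries the hair follicle markers ranged from 39.5 to 370 CPM at 24 months and from 44.5 to 111 CPM at 30 months, and no marker of these 3 lists was at 0 throughout. In the edgeR fit 2 of the 11 hair follicle markers, the transcription factors Msx2 (-0.49 ± 0.18) and Hoxc13 (-0.29 ± 0.12), were lower at an unadjusted p under 0.05 and 0 were higher, against 7.18% and 4.86% of all genes. The part of these cells in the Lce1 values was not tested. Without mouse 43, all 13 neighbouring Lce1 genes reached an unadjusted p under 0.05, where 8.98% of all genes were higher, and the lowest adjusted p among the named Lce1 genes was 0.0977 (Lce1e, log2 fold change 0.40). Without mouse 75, 3 of the 13 did, where 3.90% of all genes were higher. Lce1e, Lce1g and Lce1k stayed under 0.05 with any mouse left out, and Lce1c and Lce1d did so except without mouse 75.

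**Figure D3:**
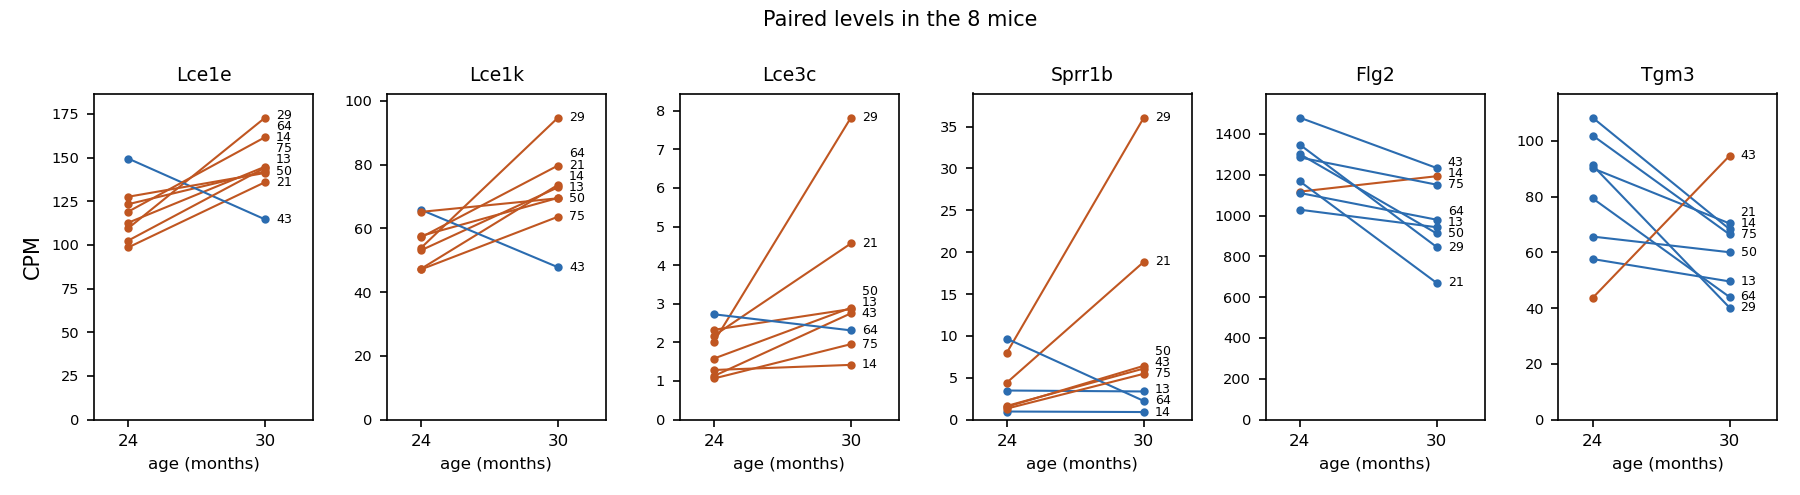
CPM of 6 envelope genes at 24 and 30 months, 1 line per mouse with its number at the right, orange where the level was higher and blue where it was lower at 30 months. Lce1e and Lce1k went down only in mouse 43, Tgm3 went up only in mouse 43, and Flg2 went up only in mouse 14.

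Lce3 genes were measured from very low counts, and 2 of the 5 tested were higher at 30 months at an unadjusted p under 0.05 (4.86% of all genes). Lce3c read 1.06 to 2.73 CPM at 24 months, with a mean of 1.79 ± 0.613 (SD, n = 8), and 1.42 to 7.82 CPM at 30 months, with a mean of 3.32 ± 2.04, with 30 to 227 reads per library. The ranges overlap, the highest value belonged to mouse 29, and 7 of 8 mice were higher. The log2 fold change was 0.79 ± 0.23 (SE, n = 8 mice), that is 1.73-fold, with an edgeR adjusted p of 0.279, and it stayed between 0.62 and 0.94 with each mouse left out. Lce3f, with 6 to 45 reads per library, read 0.198, 0.255 and 0.471 CPM at 24 months and 0.300, 0.503 and 1.55 CPM at 30 months. It too was higher in 7 of 8 mice, by 1.04 ± 0.33 on the log2 scale (edgeR adjusted p = 0.292). Of the other Lce3 genes, Lce3d (0.72 ± 0.38), Lce3e (0.33 ± 0.46) and Lce3a (0.30 ± 0.52) had log2 fold changes with larger errors, and Lce3b had 0 to 19 reads and was not tested. The summed Lce3 level changed by 1.91 on the log2 scale in mouse 29, 1.25 in mouse 43, 1.11 in mouse 50, 1.02 in mouse 75, 0.82 in mouse 21, 0.37 in mouse 14, -0.0029 in mouse 13 and -0.93 in mouse 64. In the same order of mice, the summed level of 8 neutrophil markers changed by 1.47, 0.62, 2.39, 0.51, 0.72, 0.23, -0.97 and -2.15, and that of 8 skeletal muscle markers by -0.16, -3.25, 0.42, 0.15, 2.82, 1.77, 3.18 and 1.32. Spearman's correlation with the Lce3 change over these 8 mice was 0.83 for the neutrophil and -0.79 for the skeletal muscle markers. These values describe sums from the same libraries and were picked out of all pairs of families and lists. Of the neutrophil markers, S100a8 and S100a9 are also in the stress keratinocyte list. Mpo, Retnlg, Elane and Ly6g read at most 1.17 CPM in any library. The part of neutrophils and muscle cells in the Lce3 values was not tested. Lce6a, a single gene before the Lce1 block, read 45.7 to 84.9 CPM at 24 months and 50.4 to 90.1 CPM at 30 months, with a log2 fold change of 0.12 ± 0.14 (edgeR adjusted p = 0.729).

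The SPRR proteins bridge other envelope proteins, and their genes are known to respond to stress. Sprr1b read 0.963, 2.55 and 9.66 CPM at 24 months (lowest, median and highest) and 0.902, 5.79 and 36.1 CPM at 30 months. The ranges overlap, with 5 of 8 mice higher by 1.89 to 2.17 on the log2 scale, mice 13 and 14 close to 0 and mouse 64 at -2.11. The log2 fold change was 1.13 ± 0.49 (SE, n = 8 mice), with an edgeR adjusted p of 0.401, and with any of mice 21, 29, 43, 50 or 75 left out the unadjusted p was above 0.05 (0.0908 to 0.109). Sprr1a read 25.005 to 71.8 CPM at 24 months and 13.1 to 165 CPM at 30 months, with a log2 fold change of 0.20 ± 0.39 that changed sign when mouse 29 (-0.013) or mouse 43 (-0.068) was left out. Sprr4 moved much as Sprr1a did (Spearman's correlation 0.87 over the 16 libraries), and its log2 fold change of 0.20 ± 0.53 also changed sign without these mice. Over the 8 mice, Spearman's correlation of the summed Sprr1 change was 0.74 with the neutrophil and -0.81 with the ear cartilage markers, a description under the limits given for Lce3, and the part of these cells in the Sprr1 values was not tested.

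The summed Sprr2 level had the widest SD of the change between mice of any family, and a few libraries carried most of the RNA. This level stayed between 7.29 and 35.5 CPM in 7 of the 8 mice at 24 months and reached 98.8 CPM in mouse 64. At 30 months it was 110 CPM in mouse 21 and 54.2 CPM in mouse 50, and 8.76 to 35.8 CPM in the others. The log2 change was 3.55 in mouse 21, 2.90 in mouse 50, -3.38 in mouse 64 and -0.70 to 0.35 in the other 5, so the spread between mice was far wider than the mean change of 0.33 ± 2.15 (SD, n = 8). None of the 9 tested Sprr2 genes reached an unadjusted p under 0.05, and Sprr2d, the highest per length, had a log2 fold change of 0.74 ± 0.44 (edgeR adjusted p = 0.523). The 8 neutrophil markers, S100a8 and S100a9 among them, summed to 9.18 to 65.2 CPM at 24 months (highest in mouse 64) and to at most 48.1 CPM at 30 months (mouse 50). Their log2 change, given above for each mouse, had a Spearman's correlation of 0.83 with the Sprr2 change over the 8 mice, and that of the ear cartilage markers -0.90, a description under the same limits. The 30-month library of mouse 21 had the highest sum of stress keratinocyte markers at that age (1250 CPM, against at most 985 CPM in the others). This sum changed by 0.40 on the log2 scale in mouse 21, but by -0.25 in mouse 50 and by -0.53 in mouse 64. Its Spearman's correlation with the Sprr2 change over the 8 mice was 0.5, under the same limits. The highest value in any library was 29.9 CPM for S100a9, 23.5 for S100a8, 22.9 for Csf3r, 7.42 for Cxcr2, 1.17 for Mpo, 1.03 for Retnlg, 0.345 for Elane and 0.0966 for Ly6g. S100a8 and S100a9 are also made by stressed keratinocytes, and the part of these cells in the Sprr2 values was not tested.

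**Figure D4:**
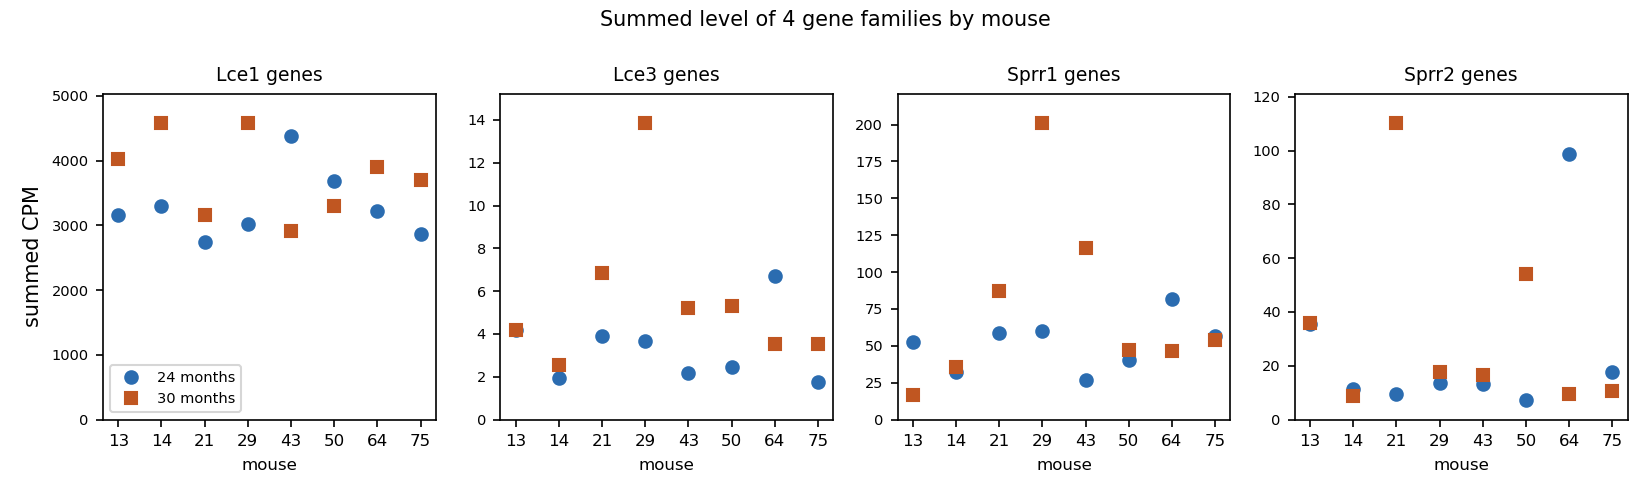
Summed CPM (vertical axis, from 0) of the Lce1, Lce3, Sprr1 and Sprr2 genes in each mouse, circles at 24 months and squares at 30 months. Lce1 sums are higher at 30 months in 6 of 8 mice, and the Sprr2 sums stand out in mouse 64 at 24 months (98.8 CPM) and in mice 21 (110 CPM) and 50 (54.2 CPM) at 30 months.

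The early and the main envelope proteins showed small differences. Loricrin read 1871, 2483 and 2951 CPM at 24 months (lowest, median and highest) and 1789, 2826 and 3407 CPM at 30 months, higher in 5 of 8 mice. This gave a log2 fold change of 0.10 ± 0.14 (SE, n = 8 mice; edgeR adjusted p = 0.794). Involucrin (Ivl), the scaffold laid down first, read 41.8, 67.1 and 76.5 CPM at 24 months and 37.3, 55.5 and 74.3 CPM at 30 months and was lower in 6 of 8 mice. The ranges overlap, and the log2 fold change was -0.21 ± 0.11 (edgeR adjusted p = 0.470). With each mouse left out it lay between -0.28 (without mouse 14) and -0.12 (without mouse 13). Loricrin and involucrin did not follow each other across the libraries (Spearman's correlation -0.09 over 16 libraries).

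The S100-fused proteins fill the corneocyte, and of the 4 tested genes Flg2 alone reached an unadjusted p under 0.05 (7.18% of all genes lower). Flg2, which encodes filaggrin-2, read 1029, 1226 and 1480 CPM at 24 months (lowest, median and highest) and 670, 961 and 1233 CPM at 30 months. The ranges overlap, and Flg2 was lower in 7 of 8 mice, most in mouse 21 (-0.80 on the log2 scale) and mouse 29 (-0.67), and slightly higher in mouse 14. The log2 fold change of Flg2 was -0.33 ± 0.11 (SE, n = 8 mice), that is 0.797-fold, with an edgeR adjusted p of 0.306, and it stayed between -0.39 and -0.25 with each mouse left out. Hornerin read 1000, 1447 and 1651 CPM at 24 months and 693, 1301 and 1658 CPM at 30 months, lower in 6 of 8 mice. Its log2 fold change of -0.23 ± 0.10 (edgeR adjusted p = 0.424) was -0.12 without mouse 13, where it was -0.88. The summed S100-fused level, made up almost wholly of Flg2 and Hrnr, was lower at 30 months in all 8 mice, with a mean log2 change of -0.26 ± 0.19 (SD, n = 8). With equal weight for each of the 5 genes the mean was -0.29 ± 0.57. The equal-weight mean includes Flg, whose counts were not read as its level, so it does not describe the 4 tested genes alone. Repetin (0.17 ± 0.38, higher in 6 of 8 mice) and cornulin (Crnn, -0.46 ± 0.48), both low, had log2 fold changes within their errors. The value of cornulin was -0.09 without mouse 75, whose 24-month library held 6.35 CPM of it.

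**Figure D5:**
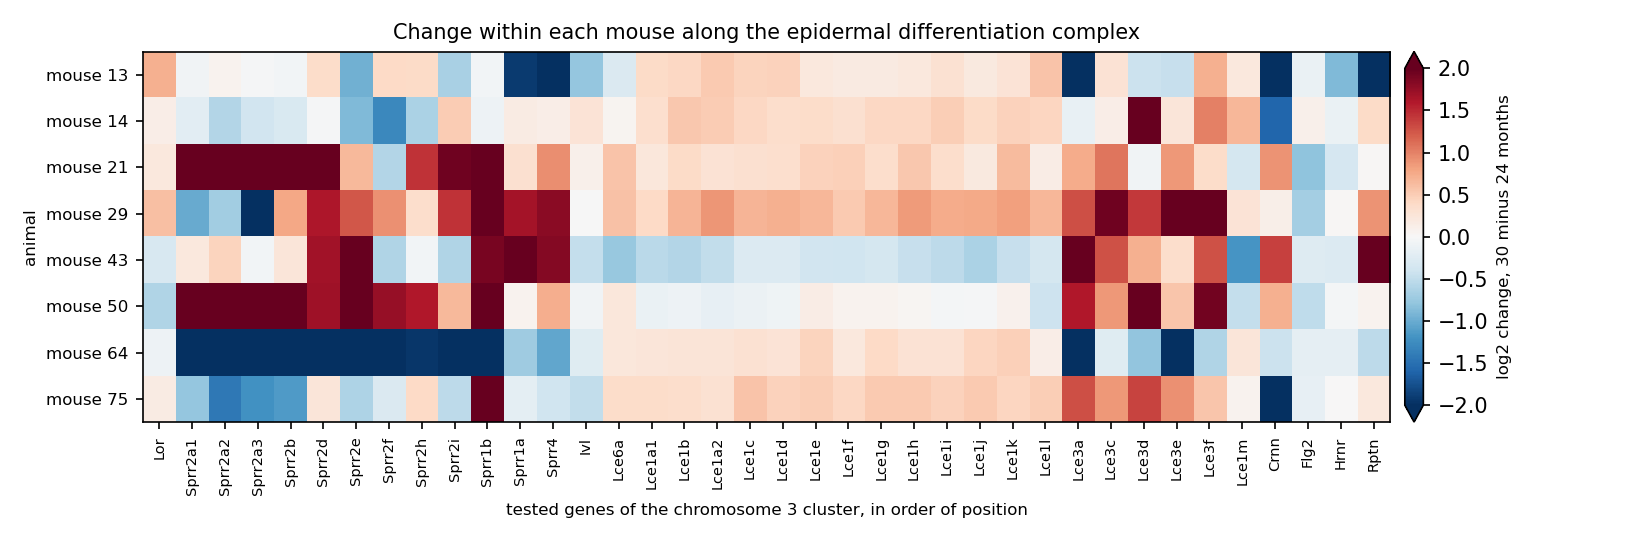
Change within each mouse (rows, log2 of 30 over 24 months, colour scale from -2 to 2) for the tested genes of the chromosome 3 cluster in order of position. The Lce1 block is pale red in most mice and blue in mouse 43, and the tested Sprr2 genes are mostly red in mouse 21 (except Sprr2f, at -0.59), red in mouse 50 and dark blue in mouse 64.

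The transglutaminases cross-link the envelope. Tgm1, the membrane-bound enzyme, read 79.8 to 117 CPM at 24 months and 88.7 to 154 CPM at 30 months, with a log2 fold change of 0.09 ± 0.10 (edgeR adjusted p = 0.711). Tgm3, which also acts in the hair follicle, read 43.7, 84.8 and 108 CPM at 24 months (lowest, median and highest) and 40.2, 63.3 and 94.7 CPM at 30 months. The log2 change was -1.18 to -0.13 in 7 of 8 mice and 1.12 in mouse 43, which gave a log2 fold change of -0.37 ± 0.21 (SE; edgeR adjusted p = 0.494). Tgm5 was also lower in 7 of 8 mice, with a log2 change of -0.59 to -0.23, and higher in mouse 43 (1.001), with a log2 fold change of -0.23 ± 0.15 (edgeR adjusted p = 0.561). Without mouse 43 the log2 fold changes were -0.57 for Tgm3 (edgeR adjusted p = 0.118) and -0.39 for Tgm5 (adjusted p = 0.0945), neither past the threshold. Mouse 43 had the largest increase of the hair follicle and sebaceous gland sums, as given above, and the part of these cells in these values was not tested. Across the 16 libraries Tgm3 ran opposite to Lce1e (Spearman's correlation -0.85), which describes libraries that share animals and scaling.

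The genes for holding and shedding corneocytes showed small differences as well. Spink5 lies on chromosome 18 and the others as given above. Klk7, a protease that cleaves corneodesmosin, read 431 to 562 CPM at 24 months and 370 to 692 CPM at 30 months, with a log2 fold change of -0.02 ± 0.10 (edgeR adjusted p = 0.949). Klk5, which activates Klk7, had 0.06 ± 0.08 and corneodesmosin (Cdsn) -0.02 ± 0.10 on the same scale, and each was higher in 4 and lower in 4 mice. Spink5, which encodes their inhibitor LEKTI, read 607 to 770 CPM at 24 months and 343 to 849 CPM at 30 months, and the lowest values were those of mice 13 and 21 at 30 months. Across mice the log2 fold change was -0.25 ± 0.16 (edgeR adjusted p = 0.545), and it was -0.11 without mouse 13. Casp14, the caspase that helps break down filaggrin, read 49.4 to 66.6 CPM at 24 months and 50.7 to 98.5 CPM at 30 months, with its highest value in the 30-month library of mouse 50, and its log2 fold change was 0.17 ± 0.11 (edgeR adjusted p = 0.545). Without mouse 50 the log2 fold change of Casp14 was 0.065.

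Genes that act beside the envelope were counted from lists chosen for their roles, and in edgeR 0 of their members passed an adjusted p of 0.05. At an unadjusted p under 0.05 (4.86% of all genes higher, 7.18% lower), the 25 plakin, desmosome and other scaffold genes held 1 higher and 7 lower. Desmoglein-1 genes, which join the upper keratinocytes, were among the lower ones. Dsg1b read 213 to 309 CPM at 24 months and 101 to 279 CPM at 30 months, lower in 7 of 8 mice (log2 fold change -0.72 ± 0.16, edgeR adjusted p = 0.222). Dsg1a read 1630 to 2010 CPM and 856 to 1703 CPM, lower in all 8 mice (log2 fold change -0.46 ± 0.13, edgeR adjusted p = 0.279). With DESeq2 both passed, with adjusted p of 0.0032 for Dsg1b and 0.0456 for Dsg1a. The list's median log2 fold change was -0.11.

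At the same threshold 1 of 10 suprabasal keratinocyte markers was higher and 3 were lower (against 4.86% and 7.18% of all genes). Krt1, the keratin of the spinous layer, read 330 to 586 CPM at 24 months and 490 to 2307 CPM at 30 months and was higher in all 8 mice, by 1.01 ± 0.25 on the log2 scale (edgeR adjusted p = 0.222; DESeq2 adjusted p = 0.0015). Its partner Krt10, named after its values were seen, read 9015 to 13574 CPM and 6628 to 12751 CPM and was lower in 6 of 8 mice (-0.36 ± 0.13, edgeR adjusted p = 0.346). The summed suprabasal level was lower in 6 of 8 mice, with a mean log2 change of -0.25 ± 0.32 (SD, n = 8). Most of this sum came from Krt2 (mean 16235 CPM at 24 and 12573 CPM at 30 months) and Krt10 (11374 and 9016 CPM). Of the 10 markers, 4 had a log2 fold change above 0 and 6 below.

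At an unadjusted p under 0.05, 4 of 18 tested desquamation proteases and inhibitors were higher and 0 lower (against 4.86% and 7.18% of all genes), the lowest edgeR adjusted p being 0.353, and the median log2 fold change was 0.20. The lists overlap: Dsg1a and Dsc1 are counted as lower in both the suprabasal and the scaffold list. Cstb is also the higher gene of the scaffold list, and Asprv1 is counted here and among the filaggrin-processing genes. Some genes not at that threshold, such as Krtdap and Prss8, are shared between lists too. S100a8 and S100a9 are in both the neutrophil and the stress keratinocyte list. Cstb, a cysteine protease inhibitor and envelope component, had 0.27 ± 0.10 (SE, n = 8 mice; edgeR adjusted p = 0.353) and Elf3, an epithelial transcription factor placed in this list although it is neither a protease nor an inhibitor, 0.52 ± 0.21 (adjusted p = 0.366). The protease Klk6, named after its values were seen, read 2.00 to 12.6 CPM at 24 months and 3.93 to 144 CPM at 30 months, and was higher in 7 of 8 mice. The value of 144 CPM came from mouse 29, and Klk6's log2 fold change of 1.47 ± 0.62 was 1.03 without it. Of 8 filaggrin-processing genes, 2 were higher at that threshold, Asprv1, a protease that trims profilaggrin (0.25 ± 0.10), and Padi1, and 1 was lower, Hal (against 4.86% and 7.18% of all genes). Hal, which turns the histidine of broken-down filaggrin into urocanic acid, was lower in all 8 mice (log2 fold change -0.35 ± 0.10, edgeR adjusted p = 0.279).

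Of 19 genes for the lipids around the corneocyte, 1 was higher and 4 were lower at an unadjusted p under 0.05 (against 4.86% and 7.18% of all genes). Abca12, the transporter that loads lipids into lamellar granules, read 246 to 321 CPM at 24 months and 172 to 285 CPM at 30 months and was lower in all 8 mice (log2 fold change -0.28 ± 0.07, edgeR adjusted p = 0.225; DESeq2 adjusted p = 0.0221). Abhd5, a lipase activator, was lower in 6 of 8 mice (-0.20 ± 0.07, edgeR adjusted p = 0.333). Of 19 regulators of keratinocyte differentiation, 1 was higher and 3 were lower at that threshold (against 4.86% and 7.18% of all genes). Grhl3, a factor required for barrier formation, was lower in 7 of 8 mice (log2 fold change -0.34 ± 0.09, edgeR adjusted p = 0.268), and Maf, which drives late differentiation genes, was lower in all 8 (-0.32 ± 0.09, edgeR adjusted p = 0.279). With each mouse left out, Abca12, Dsg1a, Dsg1b, Grhl3, Hal, Krt1 and Maf stayed at an unadjusted p under 0.05, whereas Abhd5 and Elf3 (without mouse 21), Asprv1 (without mouse 75), Cstb (without mouse 50), Klk6 (without mouse 21), Krt10, Msx2 (both without mouse 29) and Hoxc13 (without mouse 21) did not. No list was tested as a set.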

How the data were processed

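Ear-clip RNA of 8 mice at 2 ages was sequenced as single-end reads of 50 bases. The values the authors deposited are raw counts per gene, not normalized. The submitters' processing notes name CASAVA 1.8.4, TopHat2 2.1.0, HTSeq 0.6.1p1 and the build mm10. The strand setting is not given in the sources used here. The table's 5 summary lines (18.7% to 21.1% of a library's reads) were left out. GENCODE M21 supplied symbols, positions and exon lengths. Counts were tested with edgeR 4.0.16 in R 4.3.3 (TMM, filterByExpr, quasi-likelihood test, a term for each mouse, Benjamini-Hochberg adjustment over 21526 genes). The 8 mice are separate animals, and libraries were paired because they come from the same animal (median correlation of deviations -0.01 within and 0.01 between mice). CPM were scaled by TMM. Per-mouse changes add 0.5 to each count. Counts simulated for the same genes were used to check the test, but the outcome is not given here and no result rests on it. Alternatives were other scalings, DESeq2 1.42.0, other filters, no block on the mouse and each mouse left out.

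The pathway and marker lists, like the genes, were chosen with earlier results of these data known. Besides the 15 genes named singly, the rule for naming picked the 8 envelope genes with the smallest p and the 3 of each family highest per length. Where members of a list are described, the 2 with the smallest p were picked. Lce1a2 and Sprr2h, picked by this rule, are not described above, and some genes outside it are named. Counting error alone underlies the limit given for a count of 0. The number of columns of other samples was 0.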

Additional observations from a re-analysis of the deposited data

Results flagged for a closer look

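In 8 of 62 groups of 8 values, 1 mouse lay farther from the rest than Dixon's 95% limit allows. For normally distributed values chance gives about 1 in 20, or 3.1. Whether these values are normally distributed was not tested, so no excess is read from the 8. The Lce3 genes summed to 13.8 CPM at 30 months in mouse 29, against 6.86 CPM in the next animal. The Sprr2 genes summed to 98.8 CPM at 24 months in mouse 64 (next 35.5 CPM) and to 110 CPM at 30 months in mouse 21 (next 54.2 CPM). Sprr4, summed with the uncounted Sprr3, stood at 11.4 CPM at 24 months in mouse 64 (next 6.62 CPM).

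Among the changes within a mouse, hornerin stood out in mouse 13 at -0.88 on the log2 scale (next -0.34). Mouse 43 stood out in the summed transglutaminases (0.59, next 0.00), in Tgm3 (1.12, next -0.13) and in Tgm5 (1.001, next -0.23). The sums contain the single genes, so these flags are not independent.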

How the results depend on the processing

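The count of 0 envelope genes past an adjusted p of 0.05 held under all 14 alternatives run. The share of all genes past this threshold is given only for the edgeR fit on all mice (0%) and for DESeq2 (1.15%). In the other fits the count of 0 is therefore not read as a result about these genes. In the alternatives run for single genes, the lowest adjusted p of a named envelope gene was 0.0932 (Lce3c with DESeq2). Higher genes at an unadjusted p under 0.05 numbered 10, and 5 (without mouse 75) to 16 (without mouse 43) with each mouse left out. Lower genes numbered 1, and 2 with library totals, DESeq2 or no filter (Flg2 and Hrnr), and 1 to 3 with each mouse left out. The 7 neighbouring Lce1 genes at that level became 3 to 13. Shares of all genes at that level are given above only for the edgeR fit on all mice and without mouse 43, 50 or 75. Counts from the other fits are therefore not read as a result about these genes. With DESeq2, Abca12 (log2 fold change -0.28), Dsg1a (-0.45), Dsg1b (-0.71) and Krt1 (1.02) passed an adjusted p of 0.05.

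Of the 32 tested envelope genes picked by the naming rule above, 25 kept their sign under every alternative run for single genes. The other 7 changed sign under at least 1 of them. With each mouse left out, their log2 fold changes ranged from -0.071 to 0.040 (Cdsn), -0.073 to 0.061 (Klk7), -0.17 to 0.10 (Lce1m), -0.11 to 0.47 (Rptn), -0.068 to 0.49 (Sprr1a), -0.38 to 0.63 (Sprr2a2) and -0.052 to 0.60 (Sprr4). Of the genes named outside that rule, Lce3e (-0.017 to 0.73), Sprr2f (-0.44 to 0.089) and Sprr2a1 (-0.32 to 0.64) changed sign in the same way. Without the mouse as a replicate block, Cdsn (0.012) and Klk7 (0.0070) changed sign, and no call at an adjusted p of 0.05 was gained or lost. In that fit 11 envelope genes were higher and 1 lower at an unadjusted p under 0.05. The share of all genes is not given for it, so this count is not read as a result about these genes. The cause of the sign changes was not tested. Some Lce3 and Sprr2 genes had as few as 1 read in a library, where small differences are not detectable at this depth.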
